A study of Mus musculus with 18 samples.

Results

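The genes described here are 30 genes of cholesterol synthesis, uptake and efflux, followed in liver metastases seeded by the mouse colon carcinoma line MC38. Members were taken by gene symbol, and all 30 were found in both deposited tables, among 22137 genes in the table of the diet groups and 24778 genes in the table of the hairpin groups. All 30 also passed the filter on low counts, which left 16340 and 16571 genes to be tested. By role they comprise 7 genes of the mevalonate pathway (Acat2, Hmgcs1, Mvk, Pmvk, Mvd, Idi1, Fdps), 3 genes from squalene to lanosterol (Fdft1, Sqle, Lss) and 8 genes from lanosterol to cholesterol (Cyp51, Tm7sf2, Msmo1, Nsdhl, Hsd17b7, Ebp, Sc5d, Dhcr7). A further 4 genes sense sterols and control the pathway (Srebf2, Scap, Insig1, Insig2), 6 serve sterol transport, the oxysterol receptors LXR and efflux (Stard4, Nr1h2, Nr1h3, Abca1, Abcg1, Mylip), and 2 esterify cholesterol (Soat1, Soat2).

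Cells make cholesterol from acetyl-CoA through mevalonate, squalene and lanosterol. When membrane sterol is low, the escort protein Scap carries the transcription factor encoded by Srebf2 from the endoplasmic reticulum to the Golgi, where it is cut and released to switch on the enzymes of synthesis; the Insig proteins hold Scap back when sterol is plentiful. Oxysterols activate the LXR receptors, which raise the exporters Abca1 and Abcg1 and the ubiquitin ligase Mylip, a protein that removes lipoprotein receptors from the cell surface. Hepatocytes are a main site of cholesterol synthesis and export, and the liver surrounds these tumours.

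MC38 cells were injected into the spleen of wild-type mice, and RNA of the resulting liver tumours was sequenced. The LFD and HFD groups (n = 5 libraries each) were tumours of mice on a low-fat and on a high-fat diet. The shCon and shYap groups (n = 4 each) were tumours of high-fat-fed wild-type mice grown from MC38 cells with a control hairpin or with a hairpin against Yap. The labels give no sex, age, promoter of the hairpin or clone, and do not state whether each library stems from its own animal, so p-values measure only the spread between these libraries. Total estimated counts were 17766207 to 18474191 per library in the diet table and 17207214 to 21309950 in the hairpin table. Each table was normalised alone, so levels set side by side across tables carry no test.

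The libraries differed in ways that touch the results below. Albumin mRNA (Alb), made by hepatocytes, stood at 26028, 5492, 10568, 7829 and 51494 CPM (counts scaled to the TMM-adjusted library size) in LFD replicates 1 to 5. In HFD replicates 1 to 5 it stood at 1445, 1889, 168, 187 and 329.7 CPM, without overlap with LFD. In shCon replicates 1 to 4 it was 4304, 11118, 10124 and 19468 CPM and in shYap replicates 1 to 4 it was 11512, 22334, 8278 and 36887 CPM, so the groups of the hairpin table overlapped. Of 22 hepatocyte markers, Alb among them, 21 were in both tables, and none of these was at 0 in all libraries of a group. Their summed level was 13520 to 125800 CPM in LFD, 725 to 5817 in HFD, 13290 to 48800 in shCon and 15850 to 81240 in shYap. In edgeR all 21 fell in HFD against LFD, as did 9 of 9 T cell and 4 of 8 Kupffer cell markers, while 4 of 9 fibroblast markers rose, 1 of 8 endothelial markers rose and 1 fell, and 0 of 12 macrophage and 0 of 12 cell cycle markers changed. Of 11 epithelial and intestinal markers 9 were in the diet table, with a summed level of 59.2 to 554 CPM in LFD and 193 to 365 CPM in HFD; Krt20, Vil1 and Cldn7 were under 1 CPM in every library there, and of the 6 tested Cdh1 alone changed (log2 -1.89 ± 0.68, adjusted p = 0.0482). Xist, a transcript that silences an X chromosome in female cells, was at 72.9 to 135 CPM in LFD and at most 0.293 CPM in the other 3 groups, so diet and the sex of the cells sequenced cannot be told apart. Yap1 did not fall in the libraries labelled shYap (78.1, 82.4, 73.8 and 77.4 CPM in shCon; 71.6, 80.0, 81.4 and 70.5 CPM in shYap; edgeR adjusted p = 0.937), so "the libraries labelled shYap" is used for that group. In bulk tissue, fewer cells of a type and less RNA per cell cannot be told apart.

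Promoter sequence was available in RefSeq (GRCm38.p6) for 24 of the 30 members, as windows of 300 bases from 250 before to 50 after the start site. The sterol response element of Hmgcs1, the cytosolic HMG-CoA synthase at the head of the pathway, a CCAAT box or an E-box of the 3 members with the largest falls in HFD (Tm7sf2, Insig1 and Sc5d) and of Mylip, the member with the larger of the 2 rises, are printed below, upstream of the start site and 5′ to 3′ on the gene's strand; capitals mark the motif found.
Hmgcs1, sterol response element: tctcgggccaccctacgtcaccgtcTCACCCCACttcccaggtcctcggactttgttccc
Hmgcs1, CCAAT box: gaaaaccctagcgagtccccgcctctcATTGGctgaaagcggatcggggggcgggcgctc
Insig1, E-box: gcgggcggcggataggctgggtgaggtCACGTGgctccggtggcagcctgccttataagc
Tm7sf2, CCAAT box: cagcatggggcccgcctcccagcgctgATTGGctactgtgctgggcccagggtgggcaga
Sc5d, CCAAT box: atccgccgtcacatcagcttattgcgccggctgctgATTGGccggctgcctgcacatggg
Mylip, CCAAT box: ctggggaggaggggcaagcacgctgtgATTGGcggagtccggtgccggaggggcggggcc
These stretches of 60 bases lie at chr13:119690189-119690248, plus strand, and chr13:119690279-119690338, plus strand (both Hmgcs1), chr5:28071284-28071343, plus strand (Insig1), chr19:6067865-6067924, minus strand (Tm7sf2), chr9:42264301-42264360, minus strand (Sc5d) and chr13:45389648-45389707, plus strand (Mylip). CCAAT, searched on both strands so that ATTGG counts as well, was held by 19 of the 24 members (79.2%), against 41.1% of all 27025 genes with a window. The E-box CACGTG was held by 6 of 24 members (25.0%), namely Abca1, Dhcr7, Hsd17b7, Insig1, Sc5d and Scap, against 8.09% of all genes. The sterol response element TCACNCCAC was found in Hmgcs1 alone among the members (4.17%, against 1.44% of all genes), and its shorter form CACNCCAC, which the longer one contains, in Acat2, Hmgcs1 and Insig1 (12.5%, against 7.12%). A direct repeat of AGGTCA with 4 bases between, the LXR motif, was in no member window and in 0.0148% of all genes. CCAAT was present both in members that fell in HFD, such as Tm7sf2, and in Mylip, which rose.

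Per kilobase of exon, which allows a rough comparison of levels of different genes, the order of the members differed between the diet groups. The length used is that of all annotated exons of a gene, not of the transcripts present. It was longest for Lss, at 10787 bases, and the ranks depend on it. In LFD the highest were Insig1 at 76.1 ± 50.5 CPM per kilobase (SD, n = 5), Hmgcs1 at 69.9 ± 41.5, Sc5d at 65 ± 44.8 and Ebp at 57.9 ± 37.9. The ranges of these 4 overlapped. They were measured in the same libraries, and whether they differ from each other was not tested. In HFD the highest were Nr1h2 at 22.7 ± 2.75, Abca1 at 18.8 ± 2.08, Srebf2 at 16.8 ± 1.34 and Mylip at 16.2 ± 1.25 CPM per kilobase. The enzyme Ebp came next at 15.1 ± 1.18, and its range overlapped those of Srebf2 and Mylip. Other regulators and the exporter Abcg1 stood below several enzymes, with Scap, Insig1, Insig2, Abcg1 and Nr1h3 at ranks 8, 11, 12, 25 and 27. Hmgcs1, Ebp, Sc5d and Insig1 filled the first 4 places in both shCon and shYap, with Hmgcs1 at 32.1 ± 21.1 and 33.9 ± 15.6 CPM per kilobase (n = 4 each). Lss, Soat2 and Hsd17b7 were among the lowest of the members in all 4 groups.

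The diet comparison sets tumours grown on the high-fat diet against tumours grown on the low-fat diet. In HFD tumours 22 of the 30 members fell, 2 rose (Mylip and Nr1h2) and 6 did not pass the test (edgeR quasi-likelihood test, Benjamini-Hochberg adjusted p under 0.05 over all genes), with all 30 higher instead when each library is scaled by its Alb count. Over all 16340 genes tested, 21.6% were called lower and 19.4% higher. With each library scaled by its Alb count, 95.7% of all genes were called higher. The median log2 fold change of the members was -1.41, while that of all genes was close to 0. All 8 genes from lanosterol to cholesterol and all 3 from squalene to lanosterol fell, and 5 of 7 mevalonate genes did, while the efflux transporters Abca1 and Abcg1 and the esterifying enzyme Soat1 did not pass. CPM values of the groups did not overlap for 18 members that were lower in HFD and for 1 that was higher, against 14.8% and 15.8% of all genes.

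**Figure D1:**
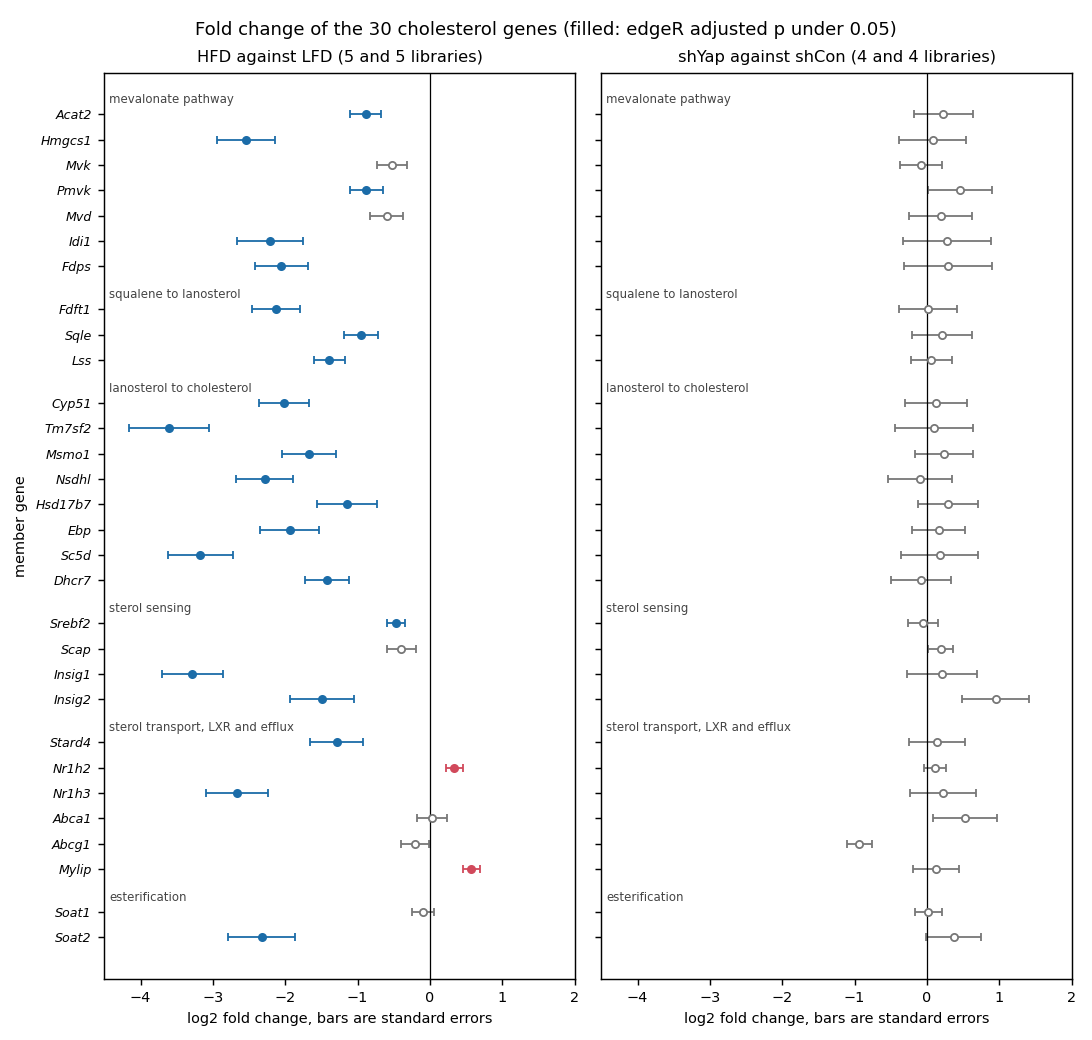
Log2 fold change of each member (points, with standard errors) in HFD against LFD and in shYap against shCon, from the edgeR fits on TMM-scaled libraries, with members grouped by role and filled points where the adjusted p was under 0.05. In the diet panel 22 members are filled below 0 and 2 above it. When libraries are scaled by Alb, all 30 were called higher, as were 95.7% of all genes. In the hairpin panel none is filled.

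Among the mevalonate genes, Hmgcs1 was at 474, 117, 255, 194 and 566 CPM in LFD replicates 1 to 5 and at 52.4, 71.1, 48.5, 51.4 and 51.1 CPM in HFD replicates 1 to 5. Every LFD library lay above every HFD library, and the log2 fold change was -2.55 ± 0.40 (SE; adjusted p = 0.00132). Idi1, the isomerase that makes the reactive isoprene unit, was at 187, 37.8, 96.4, 56.1 and 224 CPM in LFD and 23.6, 29.5, 24.8, 26.5 and 25.1 CPM in HFD, again without overlap (-2.21 ± 0.45, adjusted p = 0.00439). Fdps, which joins isoprene units into farnesyl diphosphate, was at 189.9, 51.9, 109, 71 and 214 CPM in LFD and 29.6, 31.1, 30.4, 29.7 and 31.8 CPM in HFD (-2.06 ± 0.36, adjusted p = 0.00222). For these genes LFD replicates 1 and 5 were the highest libraries and LFD replicate 2 the lowest of its group, while the HFD libraries lay close together.

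The falls of the other mevalonate genes were smaller. Acat2, the cytosolic thiolase, was at 72.7, 36.1, 52.9, 43.2 and 84.5 CPM in LFD and 29.9, 32.2, 32.4, 32.3 and 29.1 CPM in HFD (-0.89 ± 0.21, adjusted p = 0.00757). Pmvk, phosphomevalonate kinase, was at 33.5, 17.4, 18, 15.8 and 34.2 CPM in LFD and 12.8, 12.9, 12.7, 13.2 and 12.8 CPM in HFD (-0.88 ± 0.23, adjusted p = 0.0118). Neither gene overlapped between the groups; the Pmvk call was lost when HFD replicates 1 and 2, and 3 and 4, were summed as 1 library each (adjusted p = 0.0649). Mvk, mevalonate kinase, was at 34.8, 16.9, 20.1, 17.7 and 30.3 CPM in LFD and 17.2, 16.6, 16.8, 14 and 18.2 CPM in HFD and did not pass (-0.53 ± 0.20, adjusted p = 0.0619). Mvd, the decarboxylase after it, was at 31.7, 13.1, 25.7, 17 and 31.5 CPM in LFD and 15.2, 16, 17.5, 15.8 and 14 CPM in HFD and did not pass either (-0.60 ± 0.23, adjusted p = 0.06). Both overlapped between the groups, and both passed as lower without LFD replicate 2 (adjusted p = 0.0274 for Mvk and 0.00738 for Mvd), without LFD replicate 4 (0.0357 and 0.0353) and in DESeq2 (0.0421 and 0.0370).

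Between squalene and lanosterol, Fdft1, squalene synthase, was at 129, 44.3, 77, 51.2 and 151 CPM in LFD and 21.8, 21.8, 20.8, 18.3 and 20.7 CPM in HFD (-2.13 ± 0.33, adjusted p = 0.0012). Part of its exons (18.3% of bases) overlap Ctsb on the opposite strand, and its counts were not whole in any library. Fdps shares more of its exonic bases (26.7%, with Gm43738 on the same strand), and Scap, Hmgcs1 and Idi1 share 13.2%, 12.1% and 9.2% with genes on the opposite strand. Acat2 shares 0% and its counts were not whole in any library either. Whether the overlap made the Fdft1 counts not whole was not tested. Sqle, squalene epoxidase, was at 92.6, 40.3, 81.4, 56.2 and 110.2 CPM in LFD and 34.6, 41.9, 41, 39.5 and 38.7 CPM in HFD (-0.96 ± 0.23, adjusted p = 0.00891). Its LFD replicate 2 lay within the HFD range, and its call was lost with the HFD pairs summed (adjusted p = 0.0530). Lss, lanosterol synthase, was at 69.9, 35.5, 49.8, 40.8 and 83.1 CPM in LFD and 20.6, 21.9, 21.8, 20.4 and 21.5 CPM in HFD, without overlap (-1.39 ± 0.22, adjusted p = 0.00109).

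The late steps held the member with the largest fall. Tm7sf2, a sterol reductase of the endoplasmic reticulum, was at 89.5, 17.8, 32.1, 24.2 and 124 CPM in LFD and 4.59, 4.8, 4.28, 4.63 and 5.28 CPM in HFD, a 12.2-fold difference (log2 -3.60 ± 0.56, adjusted p = 0.00123). Sc5d, the sterol desaturase, was at 424, 115, 218, 177 and 646 CPM in LFD and 37.9, 43.5, 29.7, 32 and 31.9 CPM in HFD (-3.17 ± 0.45, adjusted p = 0.000877). Both were without overlap, and both were highest in LFD replicate 5. Tm7sf2 shares 12.1% of its exonic bases with Vps51 on the same strand.

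Nsdhl, a sterol dehydrogenase that takes part in removing the methyl groups of lanosterol, was at 109.9, 29.5, 54.7, 38.8 and 129.5 CPM in LFD and 13.8, 16.8, 14.3, 14.2 and 15.2 CPM in HFD (-2.28 ± 0.40, adjusted p = 0.00202). Cyp51, lanosterol demethylase, was at 184, 55.9, 115, 73.3 and 211 CPM in LFD and 30.3, 36.4, 28.5, 31.4 and 31.5 CPM in HFD (-2.01 ± 0.34, adjusted p = 0.00187). Msmo1, the methylsterol oxidase, was at 226, 65.4, 125, 96.3 and 302 CPM in LFD and 49, 53.8, 48.5, 57 and 47.9 CPM in HFD (-1.67 ± 0.37, adjusted p = 0.0065). The groups did not overlap for any of these 3 genes. Ebp, the sterol isomerase, was at 199.7, 56.2, 94.3, 66 and 252 CPM in LFD and 37, 36.7, 36.8, 31.2 and 32.6 CPM in HFD (-1.94 ± 0.41, adjusted p = 0.00491). Dhcr7, a reductase of the last steps, was at 135, 47.9, 83.2, 57 and 159 CPM in LFD and 34.7, 37.7, 36.3, 35.1 and 35.5 CPM in HFD (-1.43 ± 0.31, adjusted p = 0.00533). These groups did not overlap either; Ebp and Nsdhl lie on the X chromosome. Hsd17b7, a ketosteroid reductase, was at 68.3, 17.2, 32.2, 23.8 and 89 CPM in LFD and 21.2, 23.1, 22.1, 17.7 and 19.5 CPM in HFD (-1.15 ± 0.42, adjusted p = 0.0498). Its LFD replicate 2 lay below all HFD libraries, and its call was lost without each of LFD replicates 1, 3 and 5 and each HFD replicate (adjusted p = 0.0572 to 0.120), in limma voom (0.147), with RLE factors (0.0505) and with the HFD pairs summed (0.152).

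Among the sterol sensors, Insig1, which holds back Scap and is itself a target of the pathway's transcription factor, was at 299, 94.3, 162, 142 and 479 CPM in LFD and 23.4, 27.8, 23.2, 24.7 and 21.4 CPM in HFD, a 9.76-fold difference without overlap (log2 -3.29 ± 0.42, adjusted p = 0.000542). Its relative Insig2 was at 101, 30.7, 56.2, 29.4 and 152 CPM in LFD and 27.6, 33.7, 22.5, 25.2 and 21.8 CPM in HFD (-1.49 ± 0.44, adjusted p = 0.0233). The Insig2 ranges overlapped, and leaving out LFD replicate 1 ended its call (adjusted p = 0.0551), as did leaving out HFD replicate 3 (0.0540) or 5 (0.0547), the use of limma voom (0.0597) and summing the HFD pairs (0.0906). Srebf2 itself was at 173, 125, 207, 162 and 168 CPM in LFD and 105, 119, 128, 128 and 122 CPM in HFD, a small fall with overlapping ranges (-0.47 ± 0.12, adjusted p = 0.012, and 0.0621 with the HFD pairs summed). Scap was at 109.7, 79.5, 76, 75.1 and 159.5 CPM in LFD and 83.6, 76.8, 75.3, 65.4 and 79 CPM in HFD and did not pass (-0.39 ± 0.20, adjusted p = 0.147).

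In sterol transport and the LXR branch the members went different ways. Nr1h3, LXR alpha, was at 64.8, 16.5, 31.4, 23.2 and 77.1 CPM in LFD and 7.23, 8.94, 4.84, 6.39 and 6.01 CPM in HFD, without overlap (-2.67 ± 0.43, adjusted p = 0.00148). Nr1h2, LXR beta, was at 65.2, 55.4, 57.4, 49.8 and 73.9 CPM in LFD and 69.9, 69.5, 87.1, 85.2 and 68.8 CPM in HFD and rose by a little (0.34 ± 0.12, adjusted p = 0.0469). The Nr1h2 ranges overlapped, and its call was lost in every fit with 1 library left out other than LFD replicate 5 (adjusted p = 0.0519 to 0.107), with RLE factors (0.0883), in DESeq2 (0.0838) and with the HFD pairs summed (0.133). Mylip was at 34, 46.2, 34.1, 31.6 and 30.6 CPM in LFD and 51.4, 52.7, 57.9, 53.4 and 46.6 CPM in HFD and rose (0.57 ± 0.12, adjusted p = 0.00389). It was the only member higher in every HFD library than in every LFD library. Stard4, a cytosolic sterol carrier, was at 97.2, 42.5, 70.7, 55.1 and 192 CPM in LFD and 37, 37.5, 39.2, 39.7 and 33.5 CPM in HFD and fell without overlap (-1.29 ± 0.36, adjusted p = 0.0179), a call that was lost with the HFD pairs summed (adjusted p = 0.0814).

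The exporters did not pass the test. Abca1, which loads cholesterol onto lipid-poor apolipoproteins, was at 177, 225, 123, 144 and 283 CPM in LFD and 198, 227, 168, 196 and 183 CPM in HFD (log2 fold change 0.03 ± 0.21, adjusted p = 0.92), with a 95% interval of -0.38 to 0.44. Abcg1, which exports sterol to lipoprotein particles, was at 32.3, 40, 41, 47.5 and 29.1 CPM in LFD and 40.9, 40.2, 24.2, 24.1 and 34.7 CPM in HFD (-0.21 ± 0.19, adjusted p = 0.401). Both overlapped between the groups, and within HFD Abcg1 was lower in replicates 3 and 4 than in the others.

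The esterifying enzymes differed from each other. Soat1, the widely expressed form, was at 62.8, 81.6, 93.9, 96.3 and 52.6 CPM in LFD and 74.6, 74.8, 69, 74.4 and 69 CPM in HFD, with overlapping ranges (-0.10 ± 0.16, adjusted p = 0.637). Soat2, the form of hepatocytes and enterocytes, was at 18.8, 4.72, 9.26, 6.49 and 26.5 CPM in LFD and 3.44, 2.83, 1.91, 2.52 and 2.35 CPM in HFD and fell without overlap (-2.32 ± 0.46, adjusted p = 0.00346).

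**Figure D2:**
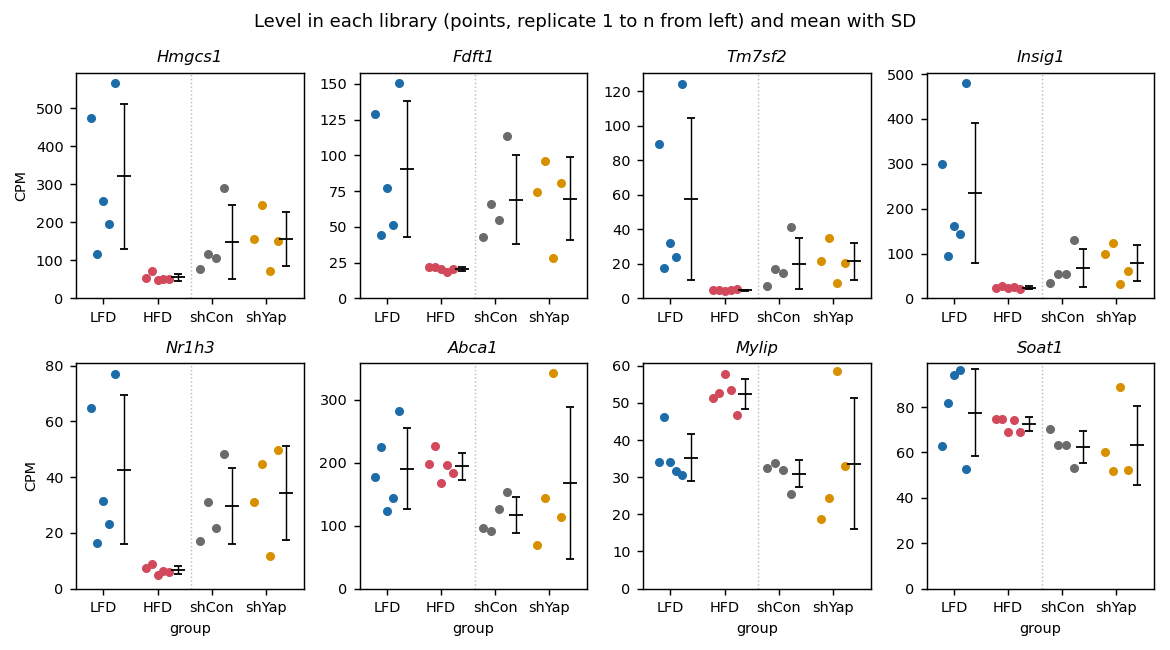
CPM in each library (points, replicate 1 on the left of each group) with the mean and SD for 8 members; the dotted line separates the diet and hairpin tables, which were normalised apart. HFD libraries lie closer together than LFD libraries for the enzymes and Insig1, the HFD libraries of Nr1h3 vary by 1.85-fold, while LFD, shCon and shYap libraries spread widely for Hmgcs1, Fdft1, Tm7sf2, Insig1 and Nr1h3.

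The spread among libraries of a group was itself unequal. The coefficient of variation of the members had a median of 8.10% in HFD, near the 9.51% of all genes, and of 52.8% in LFD, 40.7% in shCon and 45.4% in shYap, against 21.9%, 14.8% and 24.2% for all genes. In HFD 26 of 30 members varied by less than 1.5-fold from the lowest to the highest library, although Alb varied by 11.3-fold there; in LFD 1 of 30 did, with Alb varying by 9.38-fold. LFD replicate 5, the library with the most Alb, was the highest of its group for 24 members, and LFD replicate 2, the one with the least, was the lowest for 22.

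Relative to albumin the picture turned. Per 1000 Alb counts of the same library, Hmgcs1 had 18.2, 21.3, 24.1, 24.8 and 11 counts in LFD replicates 1 to 5 and 36.3, 37.6, 289, 275 and 155 counts in HFD replicates 1 to 5. Abca1 had 6.82, 40.9, 11.6, 18.4 and 5.49 counts in LFD and 137, 120.0, 1003, 1049 and 555 counts in HFD. Of the 30 members 28 were higher without overlap in HFD on this scale, as were 93.2% of all genes. The exceptions were Tm7sf2, with 3.44, 3.24, 3.04, 3.09 and 2.41 counts per 1000 Alb counts in LFD and 3.17, 2.54, 25.5, 24.8 and 16 in HFD, and Insig1, with 11.5, 17.2, 15.3, 18.2 and 9.3 and 16.2, 14.7, 138, 132 and 65. For both genes HFD replicates 1 and 2 overlapped LFD and replicates 3, 4 and 5 lay far above.

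In edgeR with each library scaled by its Alb count, all 30 members were higher in HFD, against 95.7% of all genes, and the median log2 fold change was 4.11 for the members and 5.05 for all genes. Relative to that shift of all genes, Tm7sf2 (2.23 ± 0.94), Insig1 (2.36 ± 0.94), Sc5d (2.41 ± 0.94) and Nr1h3 (2.81 ± 0.96) stood lowest of the members and Mylip (5.57 ± 1.09) highest. This scale follows Alb, which differed between the groups by -4.66 ± 0.99 on the log2 scale of TMM-scaled libraries.

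With log2 Alb as a covariate beside diet, none of the 30 members was called, against 4.09% of all genes; at an unadjusted p under 0.05, Insig1 was among them at a log2 fold change of -1.53 ± 0.67 (unadjusted p = 0.0453, adjusted p = 0.218). Tm7sf2 then stood at -1.11 ± 0.93 and Hmgcs1 at -0.76 ± 0.62, with standard errors wider than without the covariate. The median of the members was -0.18 in this fit and -1.41 without the covariate. Because Alb did not overlap between LFD and HFD, diet and the Alb level cannot be told apart by this fit.

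**Figure D3:**
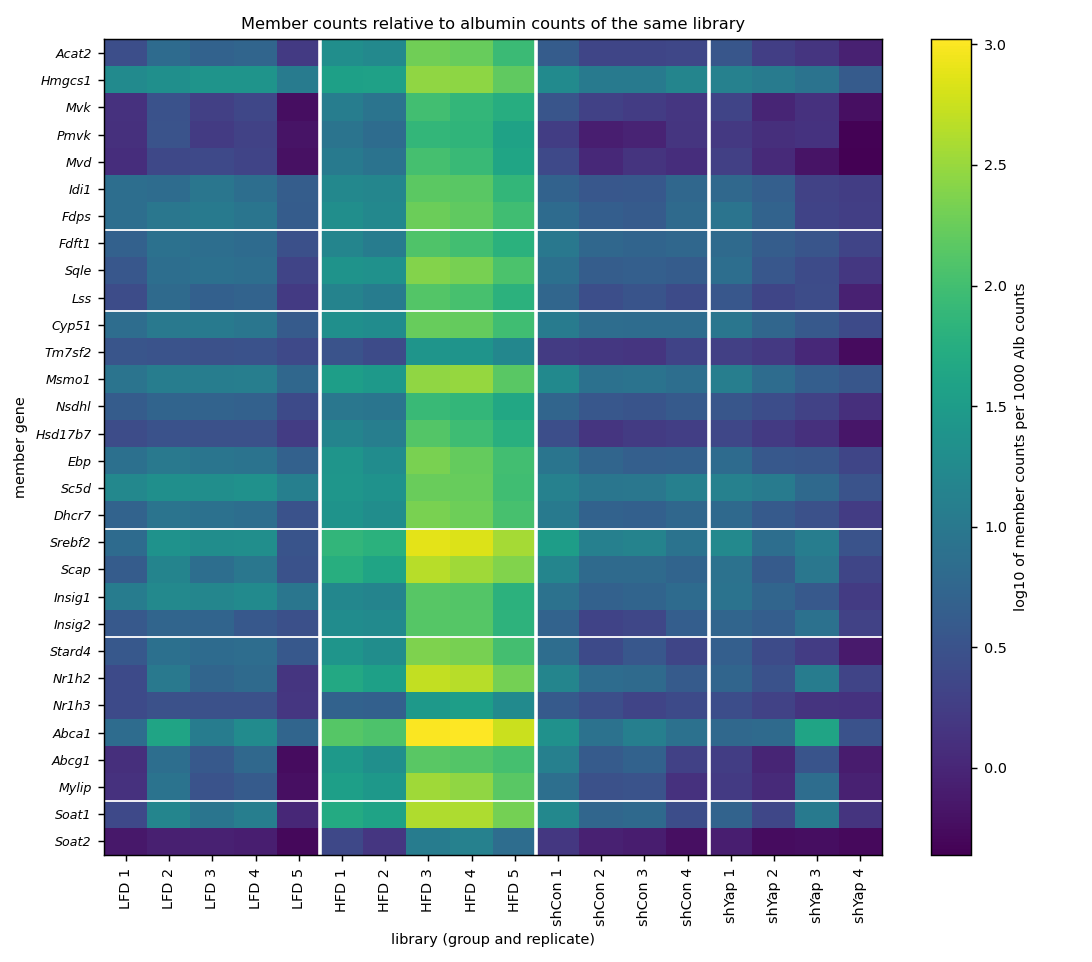
Counts of each member per 1000 Alb counts of the same library, on a log10 colour scale, for the 18 libraries in 4 groups (columns) and the 30 members by role (rows). HFD replicates 3, 4 and 5 are the brightest columns, and shYap replicate 4 and LFD replicate 5, the libraries with the most Alb in their tables, are among the darkest.

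How each member went with Alb among the libraries of a group was then described by a slope, the log2 change of the member per log2 change of Alb, where 1 means proportional to Alb and 0 unrelated. The common slope of both diets passed for 3 members, Nr1h3 (0.40 ± 0.09, adjusted p = 0.0254), Sc5d (0.38 ± 0.10, adjusted p = 0.0426) and Soat2 (0.43 ± 0.11, adjusted p = 0.0357), against 6.83% of all genes with a positive slope. The count changed with single libraries left out. The common slope passed for 0 members without each of LFD replicates 2, 3, 4 and 5, beside 853, 967, 940 and 772 of all genes with a positive slope. It passed for 1 member without LFD replicate 1 or HFD replicate 5, beside 980 and 1080 of all genes. It passed for 5 and 6 members without HFD replicates 1 and 2. In those last fits 1208 of 16593 and 1385 of 16582 genes passed with a positive slope. Slopes were therefore fitted within each group, a step added after the data were seen.

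Within LFD 25 members had a positive slope past the threshold and 2 a negative one, against 23% and 20.8% of all genes. Tm7sf2 had the steepest, 0.92 ± 0.05 (SE; edgeR adjusted p = 2.01e-07), followed by Idi1 at 0.80 ± 0.08, Soat2 at 0.78 ± 0.07 and Insig2 at 0.76 ± 0.07. Insig1 stood at 0.70 ± 0.04 and Hmgcs1 at 0.68 ± 0.07. The negative slopes were those of Soat1 (-0.26 ± 0.05, adjusted p = 0.00221) and Abcg1 (-0.19 ± 0.06, adjusted p = 0.0162), and neither passed without LFD replicate 5. Srebf2, Abca1 and Mylip did not pass in either direction. In the same fit the slopes of 21 of 21 hepatocyte markers were positive past the threshold (median 0.99). Alb itself is among these 21, and its slope of 1 is fixed by construction. The slopes of 6 of 8 Kupffer cell, 5 of 8 endothelial and 4 of 6 epithelial and intestinal markers were also positive past the threshold. Those of 10 of 12 macrophage (median -0.30), 12 of 12 cell cycle (median -0.30) and 2 of 9 fibroblast markers were negative past it. The part of these cells in the members' slopes was not tested.

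Within HFD the slope of Abcg1 alone passed, at 0.21 ± 0.04 (adjusted p = 0.0166), against 3.92% of all genes with a positive slope; it did not pass without any of HFD replicates 1, 2, 3 and 4. Tm7sf2 stood at 0.01 ± 0.05, Idi1 at 0.02 ± 0.07, Insig1 at 0.04 ± 0.04 and Hmgcs1 at 0.10 ± 0.06. Sc5d, at 0.13 ± 0.03, just missed the threshold (adjusted p = 0.0573). The difference of the slopes, HFD minus LFD, passed for 27 members, lower for 25 and higher for 2 (Abcg1 and Soat1), against 15% and 13.3% of all genes. It was -0.90 ± 0.08 for Tm7sf2 (adjusted p = 2.62e-05) and -0.65 ± 0.06 for Insig1 (adjusted p = 2.89e-05). Among the markers, all 21 of hepatocytes (median slope 0.81) and 6 of 8 of Kupffer cells kept a positive slope past the threshold within HFD. Alb is again among the 21, and by construction neither its slope nor its slope difference was free to vary. Within HFD 0 of 12 macrophage and 0 of 12 cell cycle markers passed. The slope difference was lower for 5 of 21 hepatocyte, 3 of 8 endothelial and 3 of 6 epithelial and intestinal markers, and higher for 12 of 12 cell cycle, 4 of 12 macrophage, 1 of 8 Kupffer cell and 1 of 9 fibroblast markers. The Alb levels of the groups did not overlap, at 5492 to 51494 CPM in LFD and 168 to 1889 CPM in HFD, so a difference between diets and a difference between ranges of Alb cannot be told apart.

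**Figure D4:**
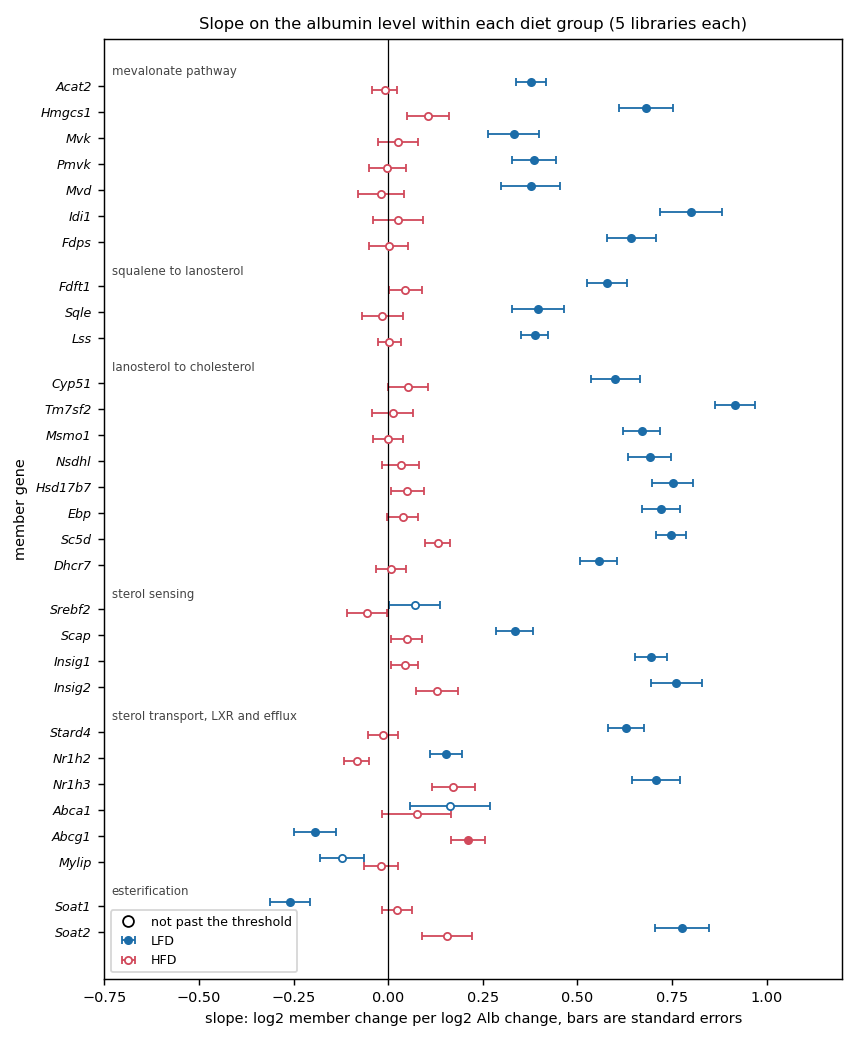
Slope of each member on log2 Alb within the LFD and within the HFD libraries, with standard errors, filled where the edgeR adjusted p was under 0.05. In LFD 25 members are filled to the right of 0, and Soat1 and Abcg1 are filled to the left. In HFD the members lie near 0 and Abcg1 alone is filled.

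**Figure D5:**
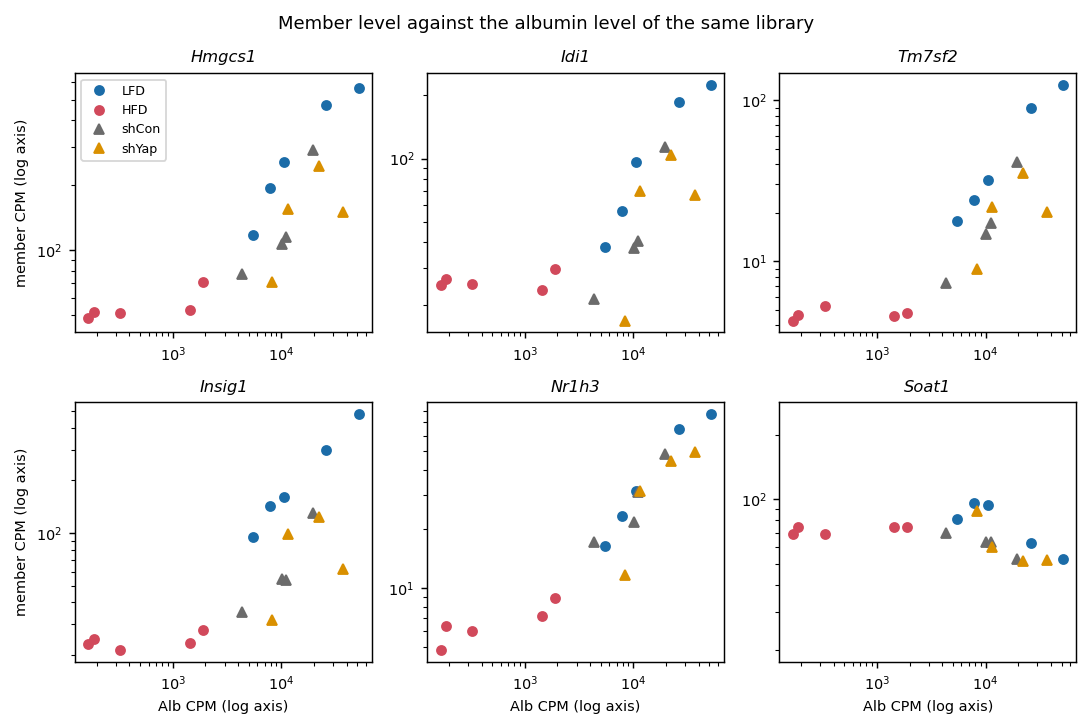
CPM of 6 members against Alb CPM of the same library, both on log axes, in LFD and HFD (circles) and shCon and shYap (triangles; their table was normalised apart). Hmgcs1, Idi1, Tm7sf2 and Insig1 are level among the HFD libraries and climb with Alb among the LFD libraries, the slope of Nr1h3 passed within LFD and not within HFD, and Soat1 is lower in the LFD libraries with the most Alb.

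Other genes of sterol metabolism, listed with earlier results of these data known, went both ways in HFD against LFD, where 21.6% of all genes were called lower and 19.4% higher. Of 10 genes listed for processing and turnover of the pathway's transcription factors, among them Srebf1, itself such a factor, 4 fell and 2 rose. Rnf139, an Insig-binding ubiquitin ligase, went from 64.4 ± 3.44 to 50.5 ± 1.67 CPM (SD, n = 5, log2 -0.35 ± 0.06, adjusted p = 0.00178). Sec24d, a coat protein of transport vesicles, went from 136 ± 4.32 to 110.2 ± 3.61 CPM (-0.30 ± 0.06, adjusted p = 0.00248), and Mbtps2, the site-2 protease, from 30.7 ± 3.43 to 44.6 ± 3.48 CPM (0.54 ± 0.09, adjusted p = 0.00191). Of 12 genes of the other branches of isoprenoid metabolism 4 rose and 1 fell. The rises included Fntb, a subunit of farnesyltransferase (0.74 ± 0.11, adjusted p = 0.000892), and Icmt and Rce1, which finish prenylated proteins (0.70 ± 0.09 and 0.62 ± 0.08). These stood against the falls of Fdps and Idi1, which supply that branch.

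Of 22 further genes of sterol transport and lipoprotein receptors 10 fell and 4 rose. Abcg5 and Abcg8, the exporter of sterol into bile, fell from 32.9 ± 24.5 to 0.481 ± 0.367 CPM (-6.07 ± 0.71) and from 37.6 ± 34.6 to 0.460 ± 0.388 CPM (-6.33 ± 0.87), and Tmem97 from 83.9 ± 17.2 to 36.9 ± 3.89 CPM (-1.19 ± 0.14, adjusted p = 0.000337). Osbpl2, a lipid transfer protein, rose (0.47 ± 0.06, adjusted p = 0.0004). Of 10 LXR targets outside the members, 6 fell and 1 rose, and Apoc1, a plasma apolipoprotein, fell from 1131 ± 765 to 23.5 ± 16.8 CPM (-5.59 ± 0.71). The LXR targets share Abcg5 and Abcg8 with the transport list, and Srebf1 with the list for processing and turnover. Of 8 oxysterol enzymes tested out of 9 listed, 4 fell and 1 rose; Cyp27a1, Cyp7b1 and Hsd3b7 fell by 4.07, 5.48 and 2.77 on the log2 scale. The hepatocyte markers fell with these genes, and their part in the falls was not tested.

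The hairpin comparison sets tumours with the hairpin against Yap beside those with the control hairpin. None of the 30 members passed in edgeR, nor did any of the 16571 genes tested, of which 0% were called at the adjusted threshold and 10.9% had an unadjusted p under 0.05. The median log2 fold change of the members was 0.17, against 0.03 for all genes. DESeq2 called 1 member, Abcg1, as lower, and over all genes 124 as higher and 286 as lower.

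In shCon replicates 1 to 4, Abcg1 stood at 55.2, 45.9, 50.6 and 38.5 CPM. In replicates 1 to 4 of the libraries labelled shYap Abcg1 stood at 20.7, 21.8, 27.6 and 29.4 CPM. It was the only member whose groups did not overlap (lower in 3.96% of all genes), with a log2 fold change of -0.93 ± 0.17 and an adjusted p of 0.153 in edgeR, 0.0437 without shCon replicate 4 and 0.00055 in DESeq2. No marker of another cell type passed in this comparison, but 9 of 9 T cell markers had an unadjusted p under 0.05 (median log2 fold change -1.94), and their summed level did not overlap, at 43.5 to 108 CPM in shCon and 19.4 to 31.4 CPM in shYap. So did 4 of 9 fibroblast, 3 of 12 macrophage, 3 of 12 cell cycle, 3 of 8 endothelial, 1 of 8 Kupffer cell, 0 of 21 hepatocyte and 0 of 6 epithelial and intestinal markers, against 10.9% of all genes; the macrophage markers summed to 3674 to 4121 CPM in shCon and 2823 to 3938 CPM in shYap. The part of these cells in the Abcg1 level was not tested.

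Insig2 was at 22.5, 23.3, 22.9 and 88 CPM in shCon and 64.2, 98.2, 65.5 and 74.5 CPM in shYap (0.95 ± 0.46, adjusted p = 0.519). For Insig2 shCon replicate 4 lay within the shYap range and the other 3 shCon libraries below it; without that library the log2 fold change was 1.72 and the adjusted p 0.0229.

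The other members varied more among libraries of a group than between the groups. Hmgcs1 was at 77.3, 115, 107 and 291 CPM in shCon and 155, 246, 71 and 150.5 CPM in shYap (0.08 ± 0.47, adjusted p = 0.974). Idi1 was at 21.4, 40.2, 37.3 and 114 CPM in shCon and 69.9, 104, 16.8 and 66.8 CPM in shYap (0.27 ± 0.60, adjusted p = 0.92). Insig1 was at 35.2, 53.9, 54.7 and 131 CPM in shCon and 98.4, 124, 31.9 and 62 CPM in shYap (0.20 ± 0.49, adjusted p = 0.926). In each of these, shCon replicate 4 was the highest library of its group and shYap replicate 3 the lowest of its own.

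Abca1 and Mylip went the other way in that last library. Abca1 was at 96.1, 90.8, 126 and 153 CPM in shCon and 69, 144, 343 and 114 CPM in shYap (0.52 ± 0.44, adjusted p = 0.745). Without shYap replicate 3 its log2 fold change was -0.08 ± 0.27. Mylip was at 32.4, 33.9, 31.9 and 25.6 CPM in shCon and 18.6, 24.3, 58.5 and 33.1 CPM in shYap (0.12 ± 0.32, adjusted p = 0.933). Replicate 3 of the libraries labelled shYap was the highest of the 8 libraries for both genes and the lowest of the 8 for 21 members, and shCon replicate 4 was the highest of its group for 27. Each other library correlated less with that replicate than with any other (r of 0.926 to 0.948 across genes, which are not independent replicates), and no member passed without it.

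The remaining enzymes spanned wide ranges in both groups. Sc5d ran from 57.5 to 249 CPM in shCon and from 51.4 to 246 CPM in shYap, Tm7sf2 from 7.31 to 41.1 and 8.9 to 35.1 CPM, and Cyp51 from 48 to 132 and 31.5 to 126 CPM. Nr1h3 ran from 17.2 to 48.1 CPM in shCon and 11.6 to 49.6 CPM in shYap. Soat1 was narrower, at 53.1 to 70.2 and 51.8 to 88.7 CPM, as was Srebf2, at 143 to 166 and 96.9 to 197 CPM. Of the 30 members 25 had a log2 fold change above 0 and 5 below, and none of these differences was larger than the spread between libraries by the adjusted test.

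Per 1000 Alb counts the shCon median lay within the LFD range for 25 of the 30 members and below it for 5, and the shYap median within it for 19 and below it for 11. Single libraries went higher: the highest shCon library lay above the highest LFD library for 14 members and the highest shYap library for 3. Hmgcs1 had 10.4 to 18 counts in shCon and 4.08 to 13.4 in shYap, against 11 to 24.8 in LFD and 36.3 to 289 in HFD. Nr1h3 had 2.14 to 4 counts in shCon and 1.34 to 2.71 in shYap, against 1.5 to 3 in LFD and 4.73 to 34.2 in HFD. The hairpin tumours came from high-fat-fed mice, as the HFD tumours did, and on this within-library ratio the highest hairpin library stayed below the lowest HFD library for 29 members. The exception was Soat2, at 1.56 counts in shCon replicate 1 and 1.497 in HFD replicate 2, and for others the gap was small, as for Nr1h3 and Tm7sf2 (2.11 in shCon replicate 4 and 2.54 in HFD replicate 2). No test was made across the tables, and these counts were made for the members only, without the share of all genes. Against LFD, 93.2% of all genes were higher without overlap in HFD on this ratio.

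The common slope on Alb in the hairpin table passed for 2 members, Nr1h3 at 0.74 ± 0.15 (adjusted p = 0.0333) and Soat2 at 0.60 ± 0.13 (adjusted p = 0.0469), against 3.16% of all genes with a positive slope. Both had also passed in the diet table. It passed for 0 members without any of shCon replicates 1 to 4 or shYap replicate 2, for 1 without shYap replicate 3, for 4 without shYap replicate 4 and for 12 without shYap replicate 1. Over all genes it passed with a positive slope for 361 of 16897 without shYap replicate 4 and for 843 of 16907 without shYap replicate 1. For all genes these numbers were 39, 218, 255 and 49 without shCon replicates 1 to 4. They were 222 without shYap replicate 2 and 503 without shYap replicate 3. Within shCon Tm7sf2 had a slope of 1.12 ± 0.29 and Idi1 of 1.07 ± 0.36, and no member passed within shCon, within shYap or in their difference, against 0.0121%, 0.0966% and 0% of all genes. Without shYap replicate 3, whose removal also narrows the spread used for shCon, 12 members passed within shCon, against 4.45% of all genes, among them Tm7sf2 (1.13 ± 0.18, adjusted p = 0.0103) and Nr1h3 (0.68 ± 0.12, adjusted p = 0.00646).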

How the data were processed

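RNA of MC38 liver tumours was sequenced in 18 libraries. The authors deposited estimated counts per gene, not all whole (60.1% of values in the diet table and 62.6% in the hairpin table were whole), in 2 tables quantified apart. Per the submitters' processing notes, the tools were STAR 2.7.3a, Partek and DESeq2, in roles not stated, and the builds GRCm38 and mm10; strand, read length and annotation are not given in the sources used here. Reads of overlapping genes therefore cannot be separated: 21 of 30 members share no exon with another gene in GENCODE M21 (GRCm38), and 14 had whole counts in every library. The lowest mean count of a gene was 1 in the diet table and 0 in the hairpin table. Intervals cover the spread between libraries; depth (17207214 to 21309950 estimated counts over both tables) adds counting error only.

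The members, lists, tests and alternatives were chosen with earlier results of these data known. Estimated counts were rounded to whole numbers and fitted per table over all genes by the quasi-likelihood F test of edgeR 4.0.16 (R 4.3.3) with robust dispersions, after filterByExpr and with TMM factors, at a Benjamini-Hochberg threshold of 0.05. CPM values use TMM-scaled library sizes, and CPM per kilobase uses exonic lengths of GENCODE M21. Alternatives were RLE and upper-quartile factors, DESeq2 1.42.0, limma voom 3.58.1, no filter or a mean of 1 CPM, the replicate number as a block, Alb or the hepatocyte list as a covariate, scaling by Alb, HFD replicates 1 and 2 and replicates 3 and 4 summed, and each library left out. The slopes within groups were added after the data were seen. The named genes are the 30 members, Alb, Yap1, Xist and the 3 smallest p of each list of other sterol genes per comparison, of which some are given by counts only.

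The fits were tested on simulated data. In the diet design (16222 genes) 72% of genes changed 2-fold and 92% of those changed 4-fold were called, and in the hairpin design (16353 genes) 48% and 93%. A simulated slope of 0.5 was called for 85% of genes in the diet design (16209 genes) and 11% in the hairpin design (16367 genes). The changed genes were drawn at random among those above a minimum mean CPM, so the shares are not for all genes tested, nor for the members. The median coefficient of variation of the members was above that of all genes in LFD (52.8% against 21.9%), shCon (40.7% against 14.8%) and shYap (45.4% against 24.2%). In HFD it was 8.10% against 9.51%. The share of changes that would be called among the members was not simulated. Members or lists not named here were not analysed here.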

Additional observations from a re-analysis of the deposited data

Results flagged for a closer look

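Of 120 combinations of member and group, 7 had a library far from the others of its group, where chance alone would mark about 1 in 20. In shCon these were all replicate 4: Pmvk at 27.8 CPM, against 9.58 in the nearest library, Dhcr7 at 114 CPM against 56.4, Srebf2 at 166 CPM against 145, and Insig2 at 88.0 CPM against 23.3. That library had the most Alb of its group, 19468 CPM. The others were Hmgcs1 in HFD replicate 2, at 71.1 CPM against 52.4, Mylip in LFD replicate 2, at 46.2 CPM against 34.1, and Ebp in shYap replicate 3, which was low at 28.8 CPM against 76.0. HFD replicate 2 had the most Alb of its group and LFD replicate 2 the least. The part of the hepatocyte level in these values was not tested.

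The slope on log2 Alb differed between HFD and LFD, by the test of the difference itself in edgeR (adjusted p under 0.05), for 27 members. The difference, HFD minus LFD, was below 0 for Acat2 (-0.39), Hmgcs1 (-0.58), Mvk (-0.31), Pmvk (-0.39), Mvd (-0.40), Idi1 (-0.77), Fdps (-0.64), Fdft1 (-0.53), Sqle (-0.41), Lss (-0.38), Cyp51 (-0.55), Tm7sf2 (-0.90), Msmo1 (-0.67), Nsdhl (-0.66), Hsd17b7 (-0.70), Ebp (-0.68), Sc5d (-0.62), Dhcr7 (-0.55), Scap (-0.29), Insig1 (-0.65), Insig2 (-0.63), Stard4 (-0.64), Nr1h2 (-0.24), Nr1h3 (-0.53), Soat2 (-0.62). It was above 0 for Abcg1 (0.40), Soat1 (0.28).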

How the results depend on the processing

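The fall of the members in HFD held in number under most settings, but not in the fits that use Alb or the hepatocyte list. The 22 members called lower were 19 to 24 under other factors, tests, filters and the replicate block (19), 16 with the closest HFD pairs summed and 20 to 24 with 1 library left out, but 0 with Alb or the hepatocyte list as a covariate and 0 scaled by Alb. Over all 16340 genes, those called lower went from 3532 to 359, 505 and 78 in these fits, in that order. Neither Alb nor the summed hepatocyte markers overlapped between LFD and HFD. Diet and the hepatocyte level therefore cannot be told apart by the covariate fits. Of the 2 called higher, 1 remained in number with RLE factors, in DESeq2, with the replicate block and with the closest HFD pairs summed, 1 to 2 with 1 library left out, 0 with either covariate, and 30 were called scaled by Alb. Scaled by Alb, 15636 of 16340 genes were called higher and 78 lower, and the cause of turns in the covariate fits was not tested. Directions turned in the covariate fits and under Alb scaling, as these log2 fold changes show. With the Alb covariate they were Hsd17b7 0.71, Insig2 0.63, Stard4 0.14, Soat2 0.00976. With the hepatocyte covariate they were Acat2 0.0411, Pmvk 0.11, Idi1 0.0778, Sqle 0.0017, Msmo1 0.15, Hsd17b7 1.02, Ebp 0.14, Dhcr7 0.0732, Insig2 0.97, Stard4 0.38, Soat2 0.31. Scaled by Alb they were Acat2 4.51, Hmgcs1 2.99, Mvk 4.78, Pmvk 4.50, Mvd 4.83, Idi1 3.52, Fdps 3.55, Fdft1 3.38, Sqle 4.47, Lss 3.995, Cyp51 3.51, Tm7sf2 2.23, Msmo1 3.98, Nsdhl 3.34, Hsd17b7 4.52, Ebp 3.72, Sc5d 2.41, Dhcr7 4.11, Srebf2 4.75, Scap 4.88, Insig1 2.36, Insig2 4.11, Stard4 4.36, Nr1h3 2.81, Abcg1 4.49, Soat1 4.81, Soat2 3.22.

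The common slope in the diet table, 3 members, was 5 in limma voom, 0 with the replicate block, 18 without HFD replicates 3 and 4 (the libraries farthest in Alb) and 0 to 6 with 1 library left out. In the hairpin table, 2 members, it was 0 with the replicate block, 0 without shYap replicate 4 and shCon replicate 1, and 0 to 12 with 1 library left out. Genes with a positive slope then numbered 1254 of 16340 in limma voom and 2137 of 16907 without HFD replicates 3 and 4. They numbered 843 of 16907 without shYap replicate 1, where 12 members passed. Within LFD the 25 positive slopes were 24 to 26 under every alternative run, and the 2 negative ones 0 to 3 with 1 library left out. Within HFD the 1 slope was 2 with RLE factors, 0 with the closest pairs summed, 0 with the replicate block and 0 to 2 with 1 library left out. The 2 higher slope differences of HFD and LFD were 1 with the closest pairs summed and 1 to 2 with 1 library left out. The 25 lower ones were 17 with the replicate block and 21 to 26 otherwise. Over all genes, lower differences numbered 1041 with the replicate block and 1297 to 2765 otherwise, and positive slopes within LFD 2396 to 4157. With the hepatocyte list in place of Alb, positive slopes passed for 4 members within shCon and 10 within shYap, against 0 and 0 with Alb. Over all 16571 genes 455 and 1088 did. With 1 library left out they passed for 0 to 12 members within shCon and 0 to 5 within shYap, beside 0 to 751 and 0 to 1075 of all genes. A lower slope difference of shYap and shCon passed for 0 to 1 members, beside 0 to 63 of all genes. In shYap against shCon, 0 members were called lower or higher in the replicate block, 1 lower in DESeq2, and 0 to 1 higher and 0 to 1 lower with 1 library left out. Without shCon replicate 4, where Insig2 and Abcg1 were called, 17 of 16848 genes were called higher and 77 lower.

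Same-numbered libraries did not deviate together throughout (correlations of 0.31, -0.50, 0.10, 0.30 and -0.27 between LFD and HFD, and 0.01, -0.05, 0.18 and 0.18 between shCon and shYap), so the numbers were not taken to pair the samples. With the replicate block the calls of Hsd17b7 (adjusted p = 0.145), Insig2 (0.0974), Stard4 (0.0660) and Nr1h2 (0.119) were lost. With 4 libraries a group, a 2-fold change would often be missed.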

Other observations

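In shYap against shCon, none of the tested genes of the 5 lists of other sterol genes passed (edgeR). These were 0 of 10 genes listed for processing and turnover of the pathway's transcription factors (with Srebf1 among them), 0 of 12 isoprenoid genes, 0 of 22 transport genes, 0 of 10 LXR targets and 0 of 8 oxysterol enzymes. The smallest p-values of the lists were those of Cyp39a1, an oxysterol hydroxylase, with means of 5.20 ± 1.34 (shCon) and 11.6 ± 5.57 CPM (shYap; SD, n = 4; log2 1.15 ± 0.34, adjusted p = 0.269), Cav1, the main protein of caveolae, at 478.5 ± 45.5 and 750.4 ± 274 CPM (0.65 ± 0.23, adjusted p = 0.349), and Vldlr, a lipoprotein receptor, at 0.487 ± 0.250 and 1.51 ± 0.941 CPM (1.63 ± 0.59, adjusted p = 0.358). Abcg5 was at 16.8 ± 3.09 and 10.2 ± 6.48 CPM (-0.72 ± 0.48, adjusted p = 0.668). Apoe, an apolipoprotein and LXR target, was at 5536 ± 761 and 6236 ± 1669 CPM (0.17 ± 0.21, adjusted p = 0.84).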
